A study of Mus musculus with 21 samples.

Results

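Rab genes encode small GTPases of the Ras superfamily. Every row of the deposited count table whose symbol is Rab, a number and at most a letter and a further digit was taken by its symbol alone. The family itself was chosen with earlier results of these data known. Rows marked as further copies of a symbol were left out. This gave 59 genes of the 48474 rows, of which 54 had enough reads to be tested. Rab17, Rab19, Rab25, Rab38 and Rab44 were too low, with between 13 and 121 reads over all mice.

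A Rab protein switches between a GTP-bound form on a membrane and a GDP-bound form that a GDP dissociation inhibitor keeps in the cytosol. Exchange factors turn it on, GTPase-activating proteins turn it off, and effectors that bind the active form tether, move or fuse vesicles, so that each Rab marks its own compartment. In neurons the family is known for synaptic vesicle release, axonal transport of endosomes and the delivery of membrane along axons and dendrites.

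Bulk RNAseq was available from the neocortex of 21 mice, 10 bigenic rNLS8 mice labelled TG and 11 monogenic control littermates labelled WT. In rNLS8 mice a tTA driver under the NEFH promoter, which acts mainly in neurons, turns on human TDP-43ΔNLS, a form without its nuclear localisation signal, once doxycycline is withdrawn. Which of both transgenes a control carries is not given, so WT does not mean free of transgenes, and the lines had been backcrossed to C57BL/6J. All mice of both groups were 17 to 19 weeks old when a non-targeting antisense oligonucleotide (350 µg, 10 µL) was injected into a ventricle of the brain. They ate chow with 200 mg/kg doxycycline until 2 weeks later and were killed 3 weeks after its withdrawal. They came from batch A (4 WT, 3 TG) and batch B (7 WT, 7 TG). Sex was not labelled.

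Total counts lay between 20700912 and 22263809 per mouse. Tardbp, the mouse gene of TDP-43, was counted in every mouse first. Its reads numbered 4514 to 5303 in the TG mice of batch B against 2463 to 2886 in WT, and 2343 to 3271 in the TG mice of batch A against 2139 to 2580 in WT. The lowest TG mouse, replicate 9 of batch A, therefore lay within the WT range for Tardbp. The transgene is human and the reads were aligned to the mouse, so this count checks the labels only in part. Replicates 8 and 9 of TG, both of batch A, also stood apart in several Rab genes, and the values without both are given where a call depends on them. The marker Rbfox3 of neurons was well counted, with 5825 ± 379 normalised reads (SD, n = 11) in WT and 5420 ± 746 (SD, n = 10) in TG.

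The members share a feature that their names do not carry. Rab proteins are anchored in membranes by lipid groups attached to cysteines at the end of the protein, and each of the 59 coding sequences in the annotation ended with at least 1 cysteine codon among its last 5 codons, 2 in 50 genes and 1 in 9. The last 30 bases of the coding sequence are printed for the members with the clearest differences and for the classical markers Rab5a and Rab7, 5′ to 3′ including the stop codon, from GENCODE models on GRCm38, with the in-frame cysteine codons in capitals.
Rab40b: TGTgccaggaacagcTGCaaaatttcttag
Rab40c: TGCtctcggagcaacTGCaagatctcctag
Rab3a: gcgccacctcatcaggatTGTgccTGCtga
Rab3c: cctccaccacagcccaacTGTggcTGCtaa
Rab39b: atcaaatcagagaggagaTGTttgTGCtag
Rab42: aagcaggactcaggcacaTGCcaaTGTtga
Rab6a: ccagtcaatgaaggcggcTGTtccTGCtaa
Rab7: aaggcctccgcagaaagcTGCagtTGTtga
Rab1a: gtcaagcagtcaggtggaggcTGCTGCtaa
Rab26: ggccgaggggtctccTGCTGTcgactctga
Rab32: acaacaaagcccaggtcccagTGCTGCtga
Rab5a: ccagccagaagccagTGTTGTagtaactga
Rab40b and Rab40c have a single cysteine codon in that window, followed by 3 further codons. Rab3a, Rab3c, Rab39b, Rab42, Rab6a and Rab7 end with a pair of cysteine codons around 1 other codon, and the remaining 4 have adjacent ones. Between genes of the same Rab number the aligned coding bases were 64.5% to 79.4% identical, and the longest stretch without a difference was 38 bases, in Rab1a and Rab1b.

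The first question was how the family as a whole compared between genotypes. edgeR's quasi-likelihood test was run on the counts, with batch as covariate and Benjamini-Hochberg adjustment over all 18248 genes tested, at an adjusted p under 0.05. Of the 54 tested Rab genes 23 differed, or 42.6%, where 44.7% of all tested genes differed, so the count itself sets the family apart in no way. The directions were 17 lower and 6 higher in TG. The lower genes made up 31.5% of the tested members against 21.7% of all tested genes, and the higher genes 11.1% against 23%. The median log2 fold change was -0.04 over the members and -0.00067 over all tested genes. The median size of the log2 fold change, regardless of sign, was 0.12 in the members and 0.18 over all tested genes. Without TMM, with counts scaled by library size only, 14 of the 54 members were lower and 12 higher. In that setting 2752 of all 18248 tested genes were lower and 5832 higher, with a median log2 fold change of 0.08.

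In 5 of the 54 members the TG and WT mice did not overlap at all, against 7.65% of all tested genes. These were Rab40b, Rab3c, Rab39b and Rab1a, all lower in TG, and Rab40c, higher in TG. The 15 differing members with a log2 fold change of at least 0.2 in size ran from -0.93 for Rab40b to 0.71 for Rab32, and the other 8 were smaller. Of the 31 members that did not pass the threshold, 23 had a 95% interval of the log2 fold change that stayed within 0.2 of zero. All Rab genes together took 0.561% ± 0.0082 (SD, n = 11) of the counts of a WT mouse and 0.534% ± 0.021 (SD, n = 10) of those of a TG mouse, with ranges of 0.544% to 0.572% and 0.495% to 0.563% that overlapped.

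**Figure D1:**
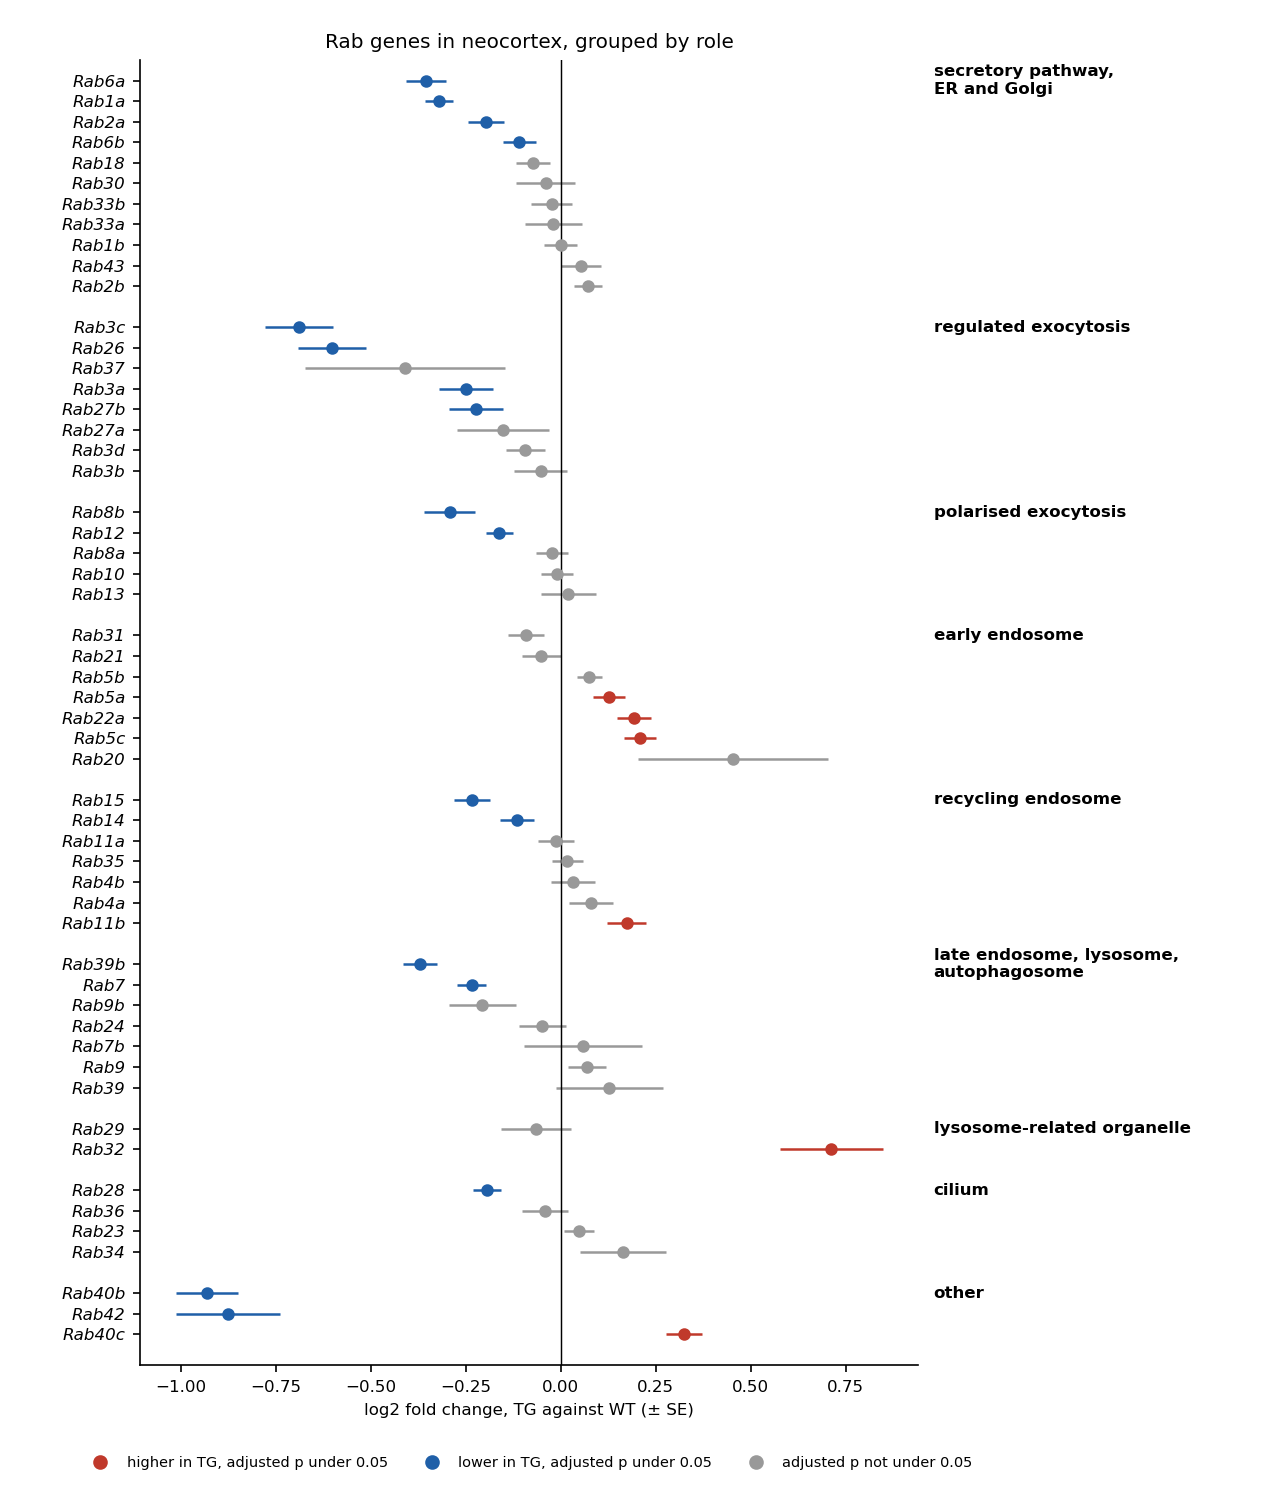
Log2 fold change between TG and WT with its standard error (horizontal axis) for each of the 54 tested Rab genes, grouped by the compartment the protein serves; red and blue points passed an adjusted p of 0.05. In regulated exocytosis all 8 points lie left of zero, of which 4 passed the threshold, and in the early endosome the 3 genes that passed lie to the right. Of all tested genes 44.7% passed.

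Levels can be compared between genes only per length. As normalised read count per kilobase of merged exons, the highest members in WT were Rab3a at 4995 ± 353, Rab6b at 4367 ± 192, Rab6a at 3192 ± 206, Rab2a at 2413 ± 159 and Rab7 at 2382 ± 104 (SD, n = 11). Rab3a and Rab6b differed by more than their SDs, whereas Rab2a and Rab7 did not. In TG the same scale gave 4187 ± 726, 4057 ± 315, 2499.8 ± 236, 2121 ± 202 and 2028 ± 118 (SD, n = 10), so that Rab3a and Rab6b lay within their spread of each other. The order among tested members ended with Rab39 and Rab7b, at 7.73 ± 1.46 and 7.76 ± 2.11 per kilobase in WT. The level of Rab3a is uncertain, because a further row of the same symbol held 182652 reads over all mice beside the 172396 of Rab3a itself. That row was lower in TG too, with a log2 fold change of -0.27.

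**Figure D2:**
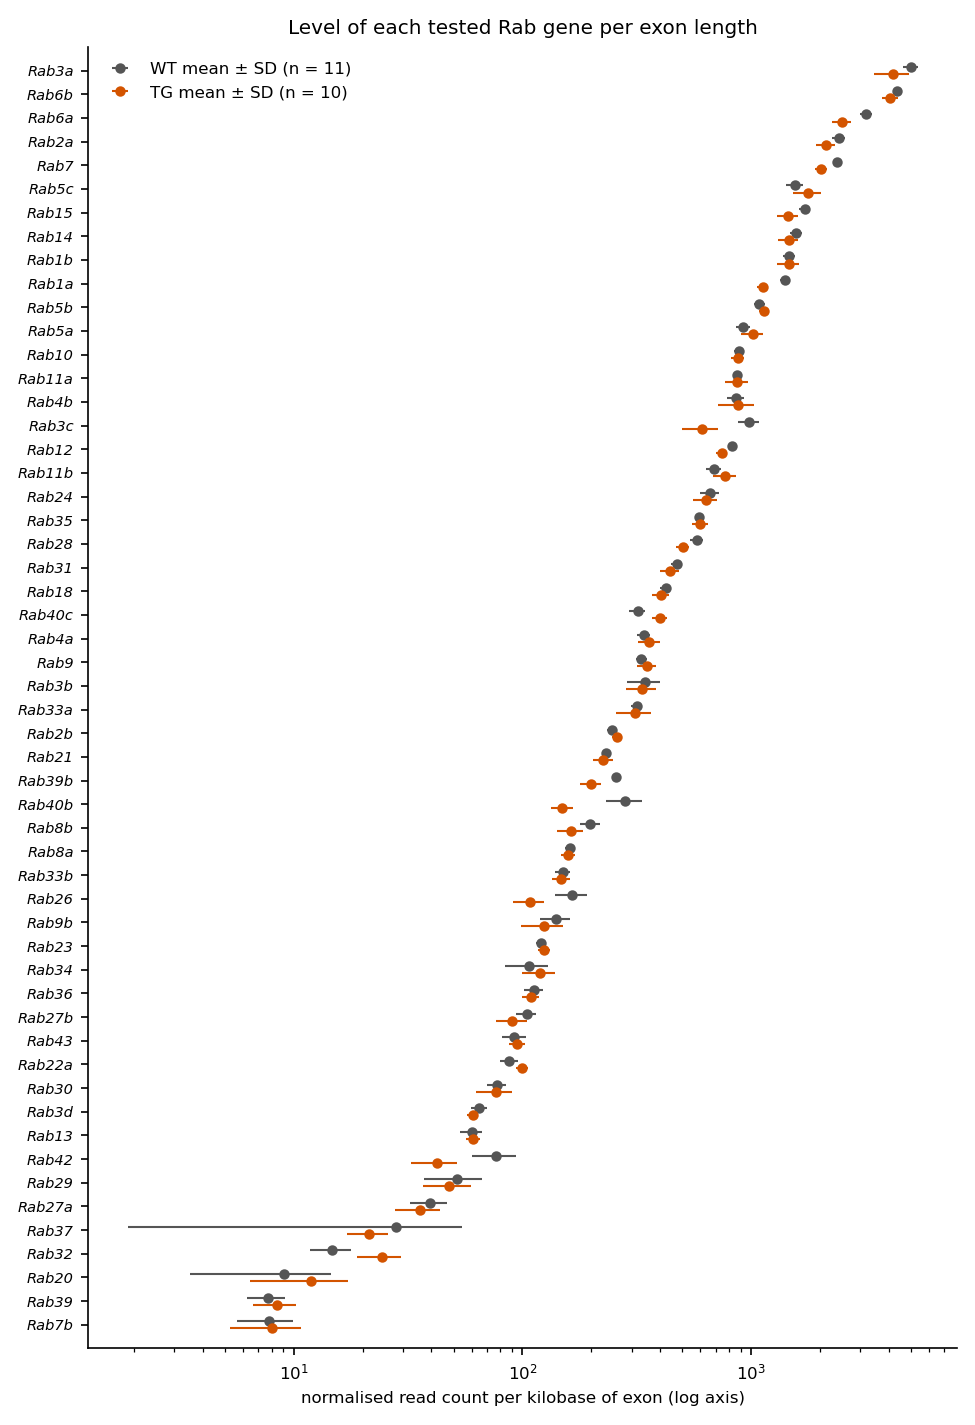
Normalised read count per kilobase of exon on a log axis, mean and SD over WT (grey, n = 11) and TG (orange, n = 10) mice, for the 54 tested Rab genes in order of level. Levels span from 4610 per kilobase over all mice for Rab3a to 7.87 for Rab7b, and the group means lie farthest apart at Rab3c, Rab40b, Rab42 and Rab32. The WT bar of Rab37 is long because of a single mouse.

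Among the Rabs of the secretory pathway between endoplasmic reticulum and Golgi, 4 of 11 tested members were lower in TG and none was higher. So 36.4% differed, where 44.7% of all tested genes did and 21.7% were lower. Rab1a (chromosome 11, 20201412 to 20226856 on GRCm38), which directs vesicles from the endoplasmic reticulum to the Golgi, had 3688 to 4228 normalised reads with a median of 3949 in WT and 2953 to 3538 with a median of 3135.5 in TG. Every TG mouse was below every WT mouse. The log2 fold change was -0.32 (SE 0.037), an adjusted p of 1.75e-07 in edgeR's quasi-likelihood test. Rab1b, which shares this task, had 2946 ± 176 (SD, n = 11) normalised reads in WT and 2929 ± 328 (SD, n = 10) in TG, with a log2 fold change of 0.00058 (95% interval -0.09 to 0.09). The sign of that value changed with the processing.

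Rab6a (chromosome 7, 100607575 to 100641268), a regulator of traffic at and from the Golgi, ranged from 9820.1 to 11984 normalised reads (median 10852) in WT and from 7135 to 9888 (median 8419.8) in TG. The groups met only at the edge, where 9 of 10 TG mice were below every WT mouse. The difference was -0.35 on the log2 scale (SE 0.052, adjusted p = 5.62e-06, edgeR). Its close relative Rab6b, which is enriched in brain, ranged from 20101 to 23316 in WT and from 17207 to 22079 in TG, with wide overlap. Its log2 fold change of -0.11 had an adjusted p of 0.0456 by edgeR, which crossed 0.05 in 20 of 33 alternative settings. Without TG replicates 8 and 9 they were -0.09 and 0.0744.

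Rab2a (chromosome 4, 8535469 to 8607702), which acts between the endoplasmic reticulum and the Golgi and on dense-core vesicles, ranged from 4404 to 5562 normalised reads (median 5249.99) in WT and from 3476 to 5093 (median 4558) in TG. The groups overlapped, and 2 TG mice were below every WT mouse. This gave a log2 fold change of -0.20 (SE 0.047, adjusted p = 0.00142, edgeR). Rab2b had 717 ± 35.2 (SD, n = 11) and 755 ± 36.1 (SD, n = 10) normalised reads, a log2 fold change of 0.07 (95% interval -0.0012 to 0.14). Rab18, Rab30, Rab33a, Rab33b and Rab43, the others of this group, did not pass the threshold, with adjusted p between 0.185 and 0.856 (edgeR).

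Among the Rabs of regulated exocytosis 4 of 8 were lower in TG and none was higher. Over all tested genes 21.7% were lower and 44.7% differed, against 50% here. The Rab3 proteins sit on synaptic and secretory vesicles and bind the active zone proteins that dock them. Rab3c (chromosome 13, 110054187 to 110280996) ranged from 7431 to 10113 normalised reads (median 8461) in WT and from 3339 to 6361 (median 5806) in TG. No TG mouse reached the lowest WT mouse, and the lowest values were those of replicates 9 and 8 of batch A. On the log2 scale TG differed from WT by -0.69 (SE 0.090, adjusted p = 1.06e-06, edgeR), with -0.92 in batch A and -0.58 in batch B.

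Rab3a (chromosome 8, 70754703 to 70758608), the main Rab of synaptic vesicles, ranged from 8232 to 10419.9 normalised reads (median 8861) in WT and from 5836 to 10558 (median 7401) in TG. Of the 10 TG mice 9 lay below every WT mouse, and replicate 9 lay above every WT mouse. edgeR put the log2 fold change at -0.25 (SE 0.072, adjusted p = 0.00669, edgeR). Rab3b and Rab3d did not pass the threshold, with log2 fold changes of -0.05 (95% interval -0.19 to 0.08) and -0.09 (95% interval -0.19 to 0.0065).

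Rab26 (chromosome 17, 24529054 to 24533747), which links synaptic vesicles to autophagy, ranged from 309.8 to 551 normalised reads (median 402) in WT and from 198 to 324 (median 269.5) in TG. Of the TG mice 8 were below every WT mouse. The log2 fold change was -0.60 (SE 0.089, adjusted p = 5.91e-06, edgeR). It shares 698 bases with Traf7 on the same strand and 497 bases with Rab26os on the other, so some of its reads may not be its own. Rab27b (chromosome 18, 69979131 to 70141633), a Rab of secretory granules and exosome release, ranged from 613 to 858 (median 823) in WT and from 496 to 805 (median 698) in TG, with wide overlap. Its log2 fold change was -0.22 (SE 0.071, adjusted p = 0.0129, edgeR), and it did not pass without TG replicates 8 and 9 (-0.15, adjusted p = 0.0871), by library size only or in either batch alone. Rab27a, its paralog, had a log2 fold change of -0.15 (95% interval -0.39 to 0.09) and did not pass.

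Rab37, of mast cell granule secretion, had 41.1 to 301 normalised reads in WT and 43.9 to 79.9 in TG, and did not pass (adjusted p = 0.217, edgeR). The WT value of 301 came from 1 mouse, replicate 2, against a median of 56.6. Rab37 spans Cd300lf on the opposite strand over 17779 bases, so some of its reads may not be its own.

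Among the Rabs of polarised exocytosis 2 of 5 (40%) were lower, where 21.7% of all tested genes were lower and 44.7% differed. Rab8b (chromosome 9, 66843609 to 66919705), of vesicle delivery to the plasma membrane, ranged from 823 to 1167 normalised reads (median 945) in WT and from 531 to 914 (median 777) in TG. The groups overlapped and 7 TG mice were below every WT mouse. This gave a log2 fold change of -0.29 (SE 0.067, adjusted p = 0.000984, edgeR). Rab12, which also acts in lysosomal degradation of receptors, was lower by a smaller step, with a log2 fold change of -0.16 (SE 0.035, adjusted p = 0.000601, edgeR). Rab8a, Rab10 and Rab13 did not pass, and the intervals of Rab8a (-0.11 to 0.06) and Rab10 (-0.09 to 0.07) exclude a log2 change of the size seen for Rab8b.

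Among the Rabs of the early endosome 3 of 7 tested members were higher in TG and none was lower. That is 42.9%, where 23% of all tested genes were higher and 44.7% differed. Rab5a (chromosome 17, 53479234 to 53507678), which drives fusion of early endosomes, ranged from 1889.9 to 2445 normalised reads (median 2204) in WT and from 1864 to 2704 (median 2454) in TG. The groups overlapped, and 5 TG mice were above every WT mouse while 1 was below. On the log2 scale TG differed from WT by 0.13 (SE 0.042, adjusted p = 0.0155, edgeR), which was not past the threshold without batch in the model.

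Rab5c (chromosome 11, 100715003 to 100738215) ranged from 2786 to 3479 normalised reads (median 2891) in WT and from 3018 to 4709 (median 3389) in TG, with 4 TG mice above every WT mouse. edgeR put the log2 fold change at 0.21 (SE 0.043, adjusted p = 0.000295, edgeR). Rab22a, which acts in sorting from early endosomes, followed with 0.19 (SE 0.044, adjusted p = 0.000995, edgeR). Rab5b had a log2 fold change of 0.08 (95% interval 0.01 to 0.14) and an adjusted p of 0.0637 by edgeR, which DESeq2 put under 0.05, as did edgeR without TG replicates 8 and 9 (0.09, adjusted p = 0.0411). Rab20, Rab21 and Rab31 did not pass, and Rab20 had on average only 12.6 normalised reads in WT and 16.5 in TG.

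The Rabs of the recycling endosome were divided, with 2 lower, 1 higher and 4 not past the threshold among 7 tested. So 42.9% differed, where 44.7% of all tested genes did. Rab15 (chromosome 12, 76797960 to 76822759), which slows recycling of receptors and is enriched in brain, ranged from 5736 to 6873 normalised reads (median 6277) in WT and from 4574 to 6651.5 (median 5169.9) in TG. Of the TG mice 9 were below every WT mouse, and the exception was replicate 9. The log2 fold change was -0.23 (SE 0.048, adjusted p = 0.000298, edgeR). The whole gene lies within Fntb on the opposite strand, and whether counting used the strand is not stated. Rab14 had a log2 fold change of -0.11 and an adjusted p of 0.0399 by edgeR, which crossed 0.05 in 18 of 33 alternative settings. Without TG replicates 8 and 9 they were -0.06 and 0.22.

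Rab11a (chromosome 9, 64715300 to 64737756), the marker of recycling endosomes, ranged from 1845 to 2157 normalised reads (median 2056) in WT and from 1481 to 2302 (median 2102) in TG. The TG mice lay on both sides of the WT range, 3 above and 2 below it. This gave a log2 fold change of -0.01 (95% interval -0.11 to 0.08), and its sign changed with the processing. Rab11b was higher in TG, with 0.17 on the log2 scale (SE 0.050, adjusted p = 0.00686, edgeR). Its level is uncertain, since of the further rows of its symbol 2 held 62288 and 60789 reads beside its own 93246, with log2 fold changes of 0.21 and 0.15.

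Among the Rabs of late endosome, lysosome and autophagosome 2 of 7 (28.6%) were lower. Of all tested genes 21.7% were lower and 44.7% differed. Rab7 (chromosome 6, 87999106 to 88045270), which drives late endosomes to fuse with lysosomes, ranged from 5740.5 to 6535 normalised reads (median 6283) in WT and from 4717 to 5748 (median 5354) in TG. The groups touched at 1 mouse, and 9 TG mice were below every WT mouse. On the log2 scale TG differed from WT by -0.23 (SE 0.038, adjusted p = 1.86e-05, edgeR). Rab7b, with 35.2 ± 9.57 (SD, n = 11) and 36.3 ± 12.5 (SD, n = 10) normalised reads, was too low for a narrow interval of its log2 fold change (-0.24 to 0.36).

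Rab39b (X chromosome, 75572045 to 75578231), a neuronal Rab linked to autophagy and to the human disease of intellectual disability with early parkinsonism, ranged from 837 to 893 normalised reads (median 872) in WT and from 569.9 to 791 (median 677) in TG. No TG mouse reached the WT range. The WT mice were closely spaced, at 872 ± 18.1 (SD, n = 11) against 678 ± 69.5 (SD, n = 10). edgeR put the log2 fold change at -0.37 (SE 0.045, adjusted p = 3.98e-07, edgeR). Within the gene, 1817 bases lie opposite to Gm15063. Its paralog Rab39 had 23.0 ± 4.34 (SD, n = 11) and 25.0 ± 5.26 (SD, n = 10) normalised reads, a log2 fold change of 0.13 (95% interval -0.15 to 0.40). Rab9b had a log2 fold change of -0.21 and an adjusted p of 0.0613 by edgeR.

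Rab32 (chromosome 10, 10545039 to 10558207), which serves lysosome-related organelles and is known in macrophages, had the largest log2 fold change among the higher members, at low level. It ranged from 23.7 to 41.1 normalised reads (median 31.1) in WT and from 38.8 to 70.7 (median 52.4) in TG. The groups overlapped and 7 TG mice were above every WT mouse. The log2 fold change was 0.71 (SE 0.14, adjusted p = 0.000132, edgeR). Rab29, the other tested member of this group, did not pass, with an adjusted p of 0.596 by edgeR. Of the 4 Rabs of the cilium only Rab28 differed, or 25%, against 44.7% of all tested genes. Its log2 fold change was -0.19 (SE 0.037, adjusted p = 0.000119, edgeR), and Rab23, Rab34 and Rab36 did not pass.

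The 3 tested Rabs put in no compartment all differed, where 44.7% of all tested genes did. They are the members left over, so this count describes no shared role. Rab40b and Rab40c carry a SOCS box, a domain that recruits a ubiquitin ligase, and they moved in opposite directions. Rab40b (chromosome 11, 121356121 to 121388251) ranged from 400.4 to 705 normalised reads (median 499.7) in WT and from 214 to 321 (median 281) in TG. All TG mice were below all WT mice. This gave a log2 fold change of -0.93 (SE 0.082, adjusted p = 2.27e-09, edgeR), the largest among the members, and it was -0.96 in batch A and -0.92 in batch B.

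Rab40c (chromosome 17, 25882114 to 25919714) ranged from 707 to 897 normalised reads (median 839) in WT and from 918 to 1192 (median 1005) in TG. All TG mice were above all WT mice. On the log2 scale TG differed from WT by 0.32 (SE 0.048, adjusted p = 6.27e-06, edgeR). The whole gene lies within the span of Gm26694 on the opposite strand, and without strand their reads cannot be told apart. Rab42 (chromosome 4, 132300438 to 132303382) was low, with 40.7 to 83.6 normalised reads (median 60.1) in WT and 21.6 to 42.9 (median 32.0) in TG. Of the TG mice 8 were below every WT mouse, at a log2 fold change of -0.88 (SE 0.14, adjusted p = 1.20e-05, edgeR).

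**Figure D3:**
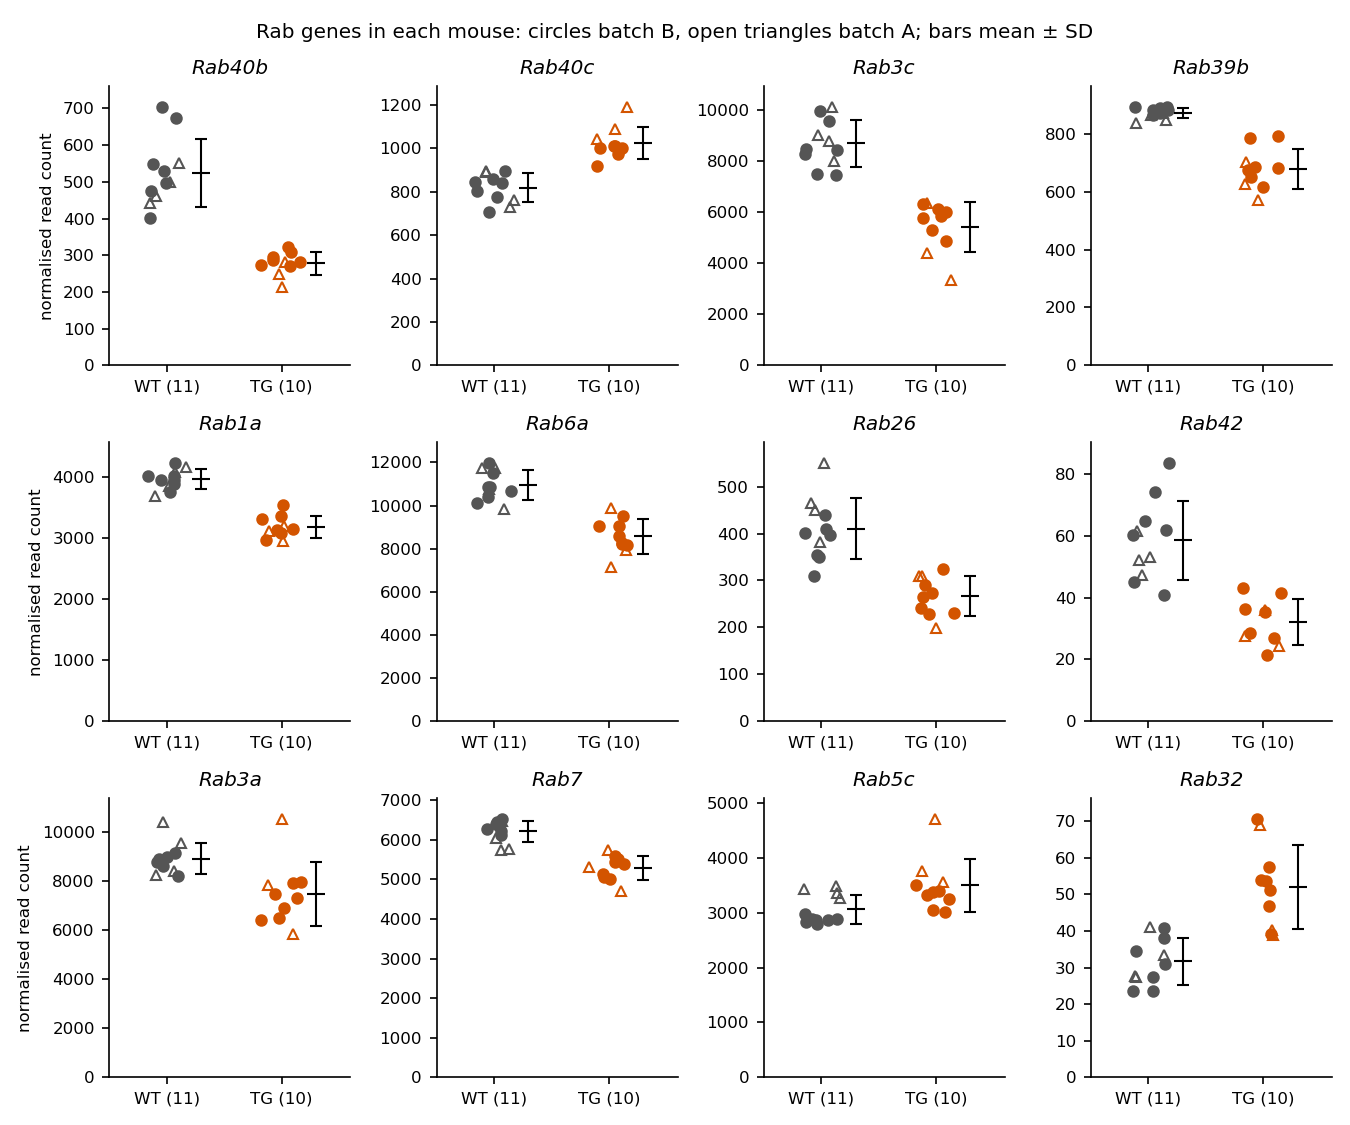
Normalised read count of 12 Rab genes in each mouse (circles, batch B; open triangles, batch A) with mean and SD per group, for 11 WT and 10 TG mice, each axis starting at 0. Rab40b, Rab3c, Rab39b and Rab1a have all TG mice below and Rab40c all TG mice above the WT mice, and the single high TG triangle of Rab3a and of Rab5c is replicate 9.

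Rab genes of the same number were then set against each other within each mouse, because the ratio of their counts does not depend on the normalisation. These ratios describe genes whose levels are known from above and were not tested. The ratio of Rab40b to Rab40c ranged from 0.515 to 0.877 (median 0.615) in WT and from 0.196 to 0.330 (median 0.284) in TG, without overlap. The median was 0.597 in WT and 0.208 in TG of batch A, and 0.646 and 0.294 in batch B. Among the 21 pairs of tested genes this was the only one without overlap.

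In the other pairs the groups overlapped, some at the edges and others widely. The ratio of Rab3c to Rab3d was lower than in every WT mouse in 9 of 10 TG mice, with medians of 34.9 in WT and 23.8 in TG. The ratio of Rab6a to Rab6b did the same in 9 TG mice, with medians of 0.489 and 0.420. In 8 TG mice the ratio of Rab1a to Rab1b was below every WT mouse, with medians of 1.34 and 1.09, and in 7 that of Rab8b to Rab8a, with medians of 1.27 and 1.11. The ratio of Rab5a to Rab5c had close medians of 0.765 and 0.746.

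**Figure D4:**
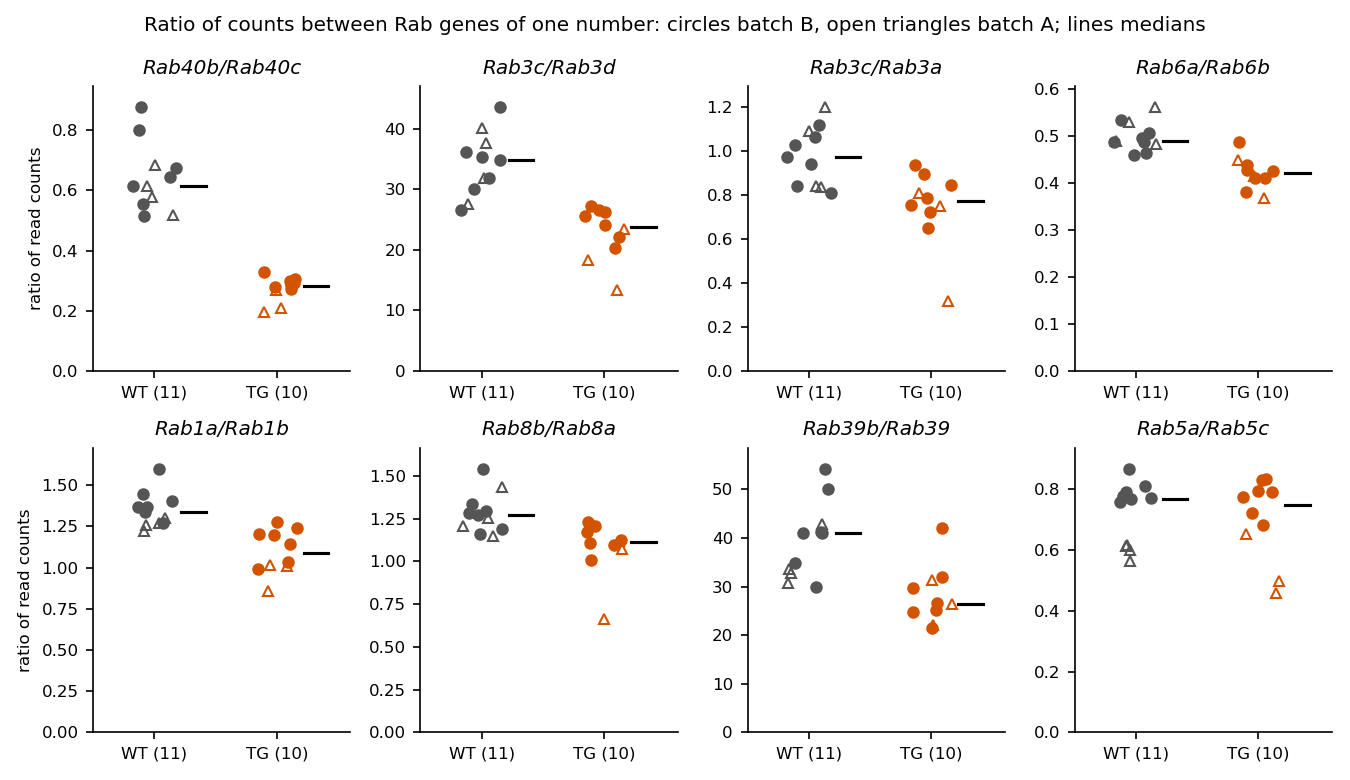
Ratio of read counts between Rab genes of one number in each mouse (circles, batch B; open triangles, batch A; lines, medians) for 8 pairs in 11 WT and 10 TG mice. The ratio of Rab40b to Rab40c separates the genotypes, at most 0.330 in TG and at least 0.515 in WT, and the ratio of Rab5a to Rab5c overlaps widely and is lower in batch A.

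Promoters are shown for the opposed pair Rab40b and Rab40c and for Rab5a. They cover the 250 bases before the start, 5′ to 3′ on the strand of the gene, from RefSeq on GRCm38.p6. Both strands were searched for the E-box CACGTG, the cyclic AMP response element TGACGTCA and the GC box GGGCGG, whose letters do not overlap each other, and matches are in capitals.
Rab40b, minus strand of chr11:121388252-121388501: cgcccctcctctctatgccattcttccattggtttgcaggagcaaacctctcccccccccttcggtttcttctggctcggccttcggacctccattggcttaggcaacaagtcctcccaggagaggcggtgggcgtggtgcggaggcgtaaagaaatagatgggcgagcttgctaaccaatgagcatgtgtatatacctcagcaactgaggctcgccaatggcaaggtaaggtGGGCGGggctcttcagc
Rab40c, minus strand of chr17:25919715-25919964: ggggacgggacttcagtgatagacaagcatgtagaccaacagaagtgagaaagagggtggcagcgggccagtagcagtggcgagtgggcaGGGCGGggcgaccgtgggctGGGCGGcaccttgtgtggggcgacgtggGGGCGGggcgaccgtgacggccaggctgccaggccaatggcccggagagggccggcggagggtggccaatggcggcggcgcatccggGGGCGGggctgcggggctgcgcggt
Rab5a, plus strand of chr17:53478984-53479233: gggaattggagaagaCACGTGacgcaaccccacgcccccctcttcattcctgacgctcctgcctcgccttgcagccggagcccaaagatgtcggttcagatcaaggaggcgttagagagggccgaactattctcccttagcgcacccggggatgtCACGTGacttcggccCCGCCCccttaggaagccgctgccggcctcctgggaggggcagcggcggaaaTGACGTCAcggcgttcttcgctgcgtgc
Of the 59 members 48 had such a promoter sequence. The GC box was in 36 of them, or 75%, and in 35.4% of all 27025 genes with a promoter. This background was not restricted to the 18248 genes tested, so it is not matched to the members in expression. The E-box was in 5 (10.4%, against 6.86% of all genes) and the cyclic AMP response element in 2 (4.17%, against 1.77%). By direction, the GC box was in 12 of the 14 lower members with a promoter, in 4 of the 6 higher ones and in 20 of the 25 not past the threshold. The E-box was in 0, 1 and 4 of these, and the cyclic AMP response element in 0, 1 and 0, the 1 being Rab5a for both.

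The regulators of the Rab cycle were counted from a list of 132 genes, of which 128 were tested and 61, or 47.7%, differed, against 44.7% of all tested genes. With 34 higher and 27 lower, or 26.6% and 21.1%, their directions lay near those of all tested genes, which were 23% and 21.7%. The median log2 fold change was 0.02. In each class up to 4 genes are named, those with the largest change among differing genes that averaged 50 or more reads in a mouse.

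Among the genes for membrane extraction and prenylation, Gdi2, a GDP dissociation inhibitor found in many tissues, had 4653 ± 273 normalised reads (SD, n = 11) in WT and 4147 ± 286 (SD, n = 10) in TG, a log2 fold change of -0.17 (SE 0.038), with 3 of 10 TG mice below every WT mouse. Chml, a Rab escort protein, had -0.21 (SE 0.075) and Rabggta, a subunit of the enzyme that attaches the lipid, 0.15 (SE 0.052). Chml did not pass in 9 of 33 alternative settings, among them the fit without TG replicates 8 and 9 (log2 fold change -0.13, adjusted p = 0.149, edgeR), and Rabggta did not pass in 3, namely without TG replicate 9 and in either batch alone.

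Of 36 tested exchange factors 10 (27.8%) were higher and 9 (25%) lower, against 23% and 21.7% of all tested genes. Dennd1b, an exchange factor for Rab35, rose by 0.57 on the log2 scale (SE 0.077), and Rin1, an exchange factor for Rab5, fell by 0.42 (SE 0.055), with 8 of 10 TG mice below every WT mouse. The subunits of the RAB3GAP complex, which turns Rab3 off and acts as exchange factor for Rab18, went in opposite directions. Rab3gap1 had 1872 ± 118 normalised reads (SD, n = 11) in WT and 1431 ± 123 (SD, n = 10) in TG without overlap, a log2 fold change of -0.39 (SE 0.046). Rab3gap2 had 1873 ± 116 (SD, n = 11) and 2382 ± 256 (SD, n = 10), a log2 fold change of 0.34 (SE 0.052), with 9 of 10 TG mice above every WT mouse.

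Of 37 tested GTPase-activating proteins 8 (21.6%) were higher and 5 (13.5%) lower, against 23% and 21.7% of all tested genes. The named ones were Tbc1d23 at 0.35 (SE 0.052) and Sgsm3 at 0.21 (SE 0.052), and Tbc1d22a at -0.34 (SE 0.045) and Sgsm2 at -0.33 (SE 0.044) on the log2 scale. Of 49 tested effectors 15 (30.6%) were higher and 11 (22.4%) lower. Rims1, the active zone protein that binds Rab3 on synaptic vesicles, had 5606 ± 857 normalised reads (SD, n = 11) in WT and 3018 ± 275 (SD, n = 10) in TG. The TG mice were all below the WT mice, at a log2 fold change of -0.89 (SE 0.077). Myo5b, a motor that carries Rab11 vesicles, had -0.71 (SE 0.093) and Rilpl1, an effector of phosphorylated Rab8 and Rab10, -0.56 (SE 0.072), both without overlap. Rufy2 rose by 0.47 (SE 0.057), likewise without overlap. All genes named in these classes passed an adjusted p of 0.05 in edgeR's quasi-likelihood test.

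Batches were then compared. Of the 23 differing members 6 also passed the threshold in batch A alone, namely Rab40b, Rab40c, Rab42, Rab3c, Rab26 and Rab39b, and 21 in batch B alone, all but Rab14 and Rab27b. Of all genes tested in these fits 11.8% and 39.1% were called, so that the counts of members lay near the background. All 23 had the same sign in each batch as over all mice, though both batches contributed to choosing them. The interaction of genotype and batch passed an adjusted p of 0.05 in edgeR's quasi-likelihood test in 0 members and in 0 of all genes. At an unadjusted p under 0.05 it was met by 2 members, Rab33b (p = 0.0105) and Rab21 (p = 0.0467), and by 1030 of all genes. DESeq2 called 1 gene and 0 members, with 3 members at an unadjusted p under 0.05, a level not counted over all genes there. Rab3c had an interaction p of 0.051 unadjusted in edgeR.

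**Figure D5:**
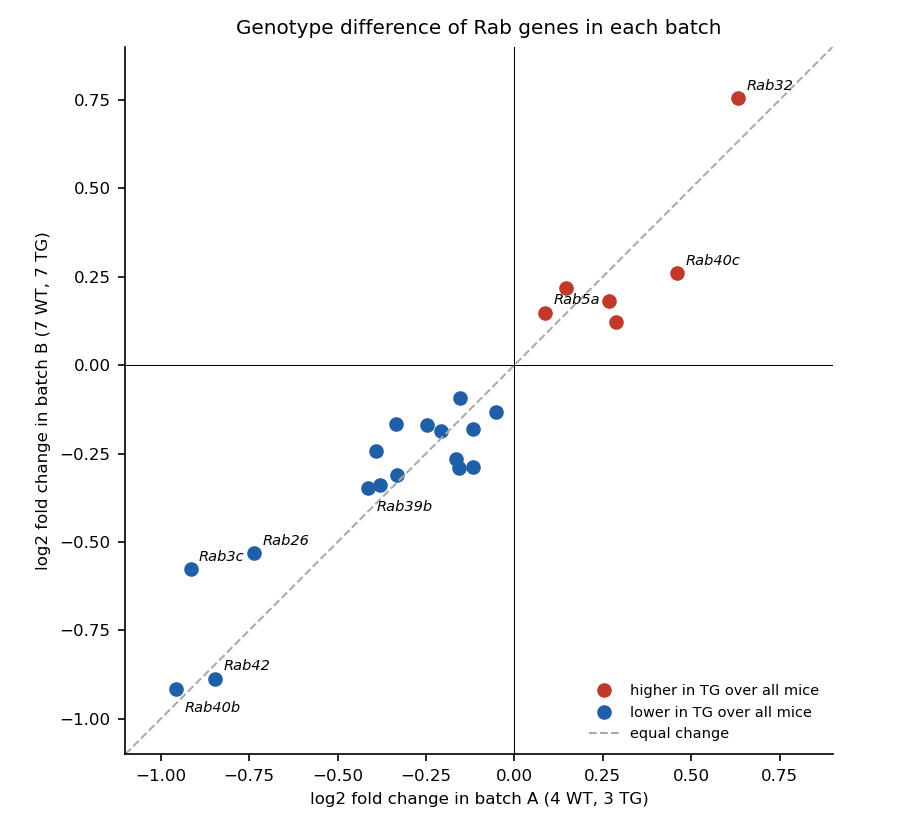
Log2 fold change between TG and WT in batch A (horizontal, 4 WT and 3 TG mice) and in batch B (vertical, 7 WT and 7 TG mice) for the 23 Rab genes that differed over all mice; the dashed line marks equal change. Every point lies in the lower left or upper right, and Rab3c, at -0.92 and -0.58, is farther from the line than Rab40b, at -0.96 and -0.92.

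In bulk tissue, fewer cells of a type and less RNA per cell cannot be told apart, and markers of several cell types moved with genotype. Over all tested genes 23% were higher and 21.7% lower in TG. Of 10 neuronal markers 6 were lower and none higher, and their summed level was 7298 to 9065 CPM, counts scaled to the effective library size, in WT and 5553 to 7651 in TG. Rbfox3, Syp, Tubb3 and Slc17a7 did not pass the threshold. Of 8 microglial markers 6 were higher and 1, P2ry12, lower, and their sum was 384 to 444 in WT and 409 to 631 in TG. Of 6 astrocytic markers 5 were lower and Gfap higher, with a sum of 4071 to 5341 in WT and 3202 to 4486 in TG. None of 6 oligodendrocytic markers passed, and their sum was 4282 to 7200.1 in WT and 4098 to 7288 in TG, while 1 of 4 endothelial markers, Flt1, was lower, with sums of 149.7 to 180.3 and 128 to 164. The part of these shifts in the values of Rab genes was not tested.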

How the data were processed

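mRNA libraries of 21 mice were sequenced. The authors deposited raw read counts per gene symbol, without normalization. The submitters' processing notes name HISAT, HISAT2, Bowtie, Bowtie2, RSEM and mm10. Which program counted the reads, and whether by strand, is not given in the sources used here. Beside the overlaps named above, Rab7 lies opposite Gm5577 over 6366 bases and shares 1929 with Gm44187 on its own strand. Rab5a lies opposite AC165960.2 over 4866 bases and Rab6a opposite Mrpl48 over 892, and further members have overlaps too. Some reads of such members may not be their own. All columns of the table were used, and 2553 rows of further copies of a symbol held 4.11% of counts.

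Counts were analysed in R 4.3.3 with edgeR 4.0.16 (expression filter with a minimum count of 10 and minimum total of 15, TMM, quasi-likelihood test of genotype with batch, Benjamini-Hochberg adjustment over 18248 genes, two-sided, threshold 0.05). Normalised reads were obtained by dividing counts by each effective library size and multiplying by the mean of these sizes. Standard errors were the log2 fold change over the root of F. Exon lengths, overlaps and coding ends came from GENCODE on GRCm38, and positions and promoters from RefSeq on GRCm38.p6. The study's methods name DESeq2, here an alternative (1.42.0), beside other scalings, filters, batches alone, the level of Xist as covariate and each mouse left out. The procedures were tested on simulated counts with few changed genes, the same dispersion for every gene and no batch effect. These data differ from that in each respect. Each replicate is 1 mouse.

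Genes were named by a rule. It took each differing member with a log2 fold change of at least 0.2, the 5 highest per kilobase, Rab3a, Rab5a, Rab7 and Rab11a, their paralogs of one number, and up to 4 genes per regulator class with a mean of at least 50 counts. Other members were named after their values were seen, and 1 gene the rule takes is not reported here. The members, lists and roles were chosen with earlier results of these data known. Depth was 20700912 to 22263809 counts per mouse, without molecular identifiers.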

Additional observations from a re-analysis of the deposited data

Results flagged for a closer look

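In the 10 TG mice the highest or lowest value of 33 Rab genes and of the share of all counts on Rab genes was compared with the rest by the gap to its neighbour as a share of the whole range. Of these 34 comparisons 9 went past Dixon's 95% critical value for 10 samples, where chance alone gives about 1.7 in mice of 1 distribution. The comparisons used the same 10 mice and were not independent, so 1 atypical mouse can be flagged many times. Batch was not taken into account, and WT mice of both batches differed too, with means of 3387 normalised reads for Rab5c and 686 for Rab22a in batch A against 2869 and 601 in batch B. The 11 WT mice were too many for this criterion. Replicate 9 of batch A was the mouse in 6 of the 9. It was highest for Rab3a, at 10558 normalised reads against 7994 for the next mouse (ratio 0.543), for Rab15 (0.58), for Rab1b (0.584), for Rab5c (0.562) and for Rab11b (0.494), and lowest for Rab8b, at 531 against 738 (0.541). Replicate 8 of batch A was lowest for Rab2a (0.57) and highest for Rab7b (0.511), and replicate 10 of batch A was highest for Rab22a (0.482). All of these mice belonged to batch A, which had 3 TG mice. In the same mice the summed level of neuronal markers was 5553 CPM in replicate 8 and 7651 in replicate 9, the lowest and highest of TG, and the sum of astrocytic markers was 4486 and 3202. Their part in the Rab values was not tested.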

How the results depend on the processing

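The number of differing Rab genes, 23, stayed between 20 and 26 in all alternatives but batch A alone, and between 21 and 24 with any mouse left out. Scaling by library size only gave 12 higher Rab genes and 17 lower regulators, with 5832 higher and 2752 lower among all 18248 tested genes. Batch A alone gave 6 differing Rab genes (1 higher, 5 lower) and 9 differing regulators (4 higher, 5 lower), with 11.8% of all genes called. Without both replicates 8 and 9 of TG, chosen after seeing the data, 21 Rab genes differed (7 higher, 14 lower), with 41.7% of all genes called. Rab26, Rab39b, Rab3c, Rab40b, Rab40c and Rab42 passed the threshold in all 33 alternatives. Rab14 and Rab6b lost it in 18 and 20, mostly with 1 mouse left out. Chml lost it without WT replicate 2 and without TG replicate 8 or 9 (adjusted p up to 0.184 over its alternatives), and Rabggta without TG replicate 9. Of the members not past the threshold, Rab9b passed without TG replicate 1, 3 or 5 or WT replicate 2 or 7, Rab5b without WT replicate 1 or 8 or TG replicate 5, Rab31 without TG replicate 8, Rab2b without TG replicate 9 and Rab20 without WT replicate 8. The interaction with batch was refitted only with DESeq2, other scalings and filters, and without TG replicate 8, 9 or 10. It was called in 0 members each time, with 1 to 11 at an unadjusted p under 0.05, the 11 without TG replicate 10. All genes at that unadjusted p were not counted in these fits, so the 11 has no share to be judged against. Without filter 22.8% of all genes were called.
Of the members not past the threshold, those of the naming rule were followed through the alternatives, and their log2 fold change changed sign as given next, for causes not tested. Others, such as Rab10 and Rab33a, changed sign in a batch alone. Rab1b had -0.0028 in DESeq2, -0.0085 without batch, -0.032 in batch B alone, -0.0035 with Xist, -0.025 without replicates 8 and 9, and -0.034 to 0.015 with each mouse left out. Rab11a had 0.0027 without batch, 0.065 by library size, 0.0013 without filter, 0.040 in batch B, 0.057 without replicates 8 and 9, and -0.036 to 0.030 with each mouse left out. Rab3b had 0.022 by library size and 0.013 in batch A, and Rab8a had 0.054 and 0.037. Rab39 had -0.0063 in batch A. Rab7b had -0.073 in batch B, -0.057 without replicates 8 and 9, and -0.040 to 0.12 with each mouse left out.
No paired analysis was possible because the labels give no replicate numbers shared between groups. At this depth, some low members such as Rab20 (SE 0.25) had wide intervals. Rab37 (SE 0.26) had one too, with its highest WT mouse at 301 normalised reads against a WT median of 56.6.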
